A study of Mus musculus with 24 samples.

Results

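The response of epididymal white adipose tissue (eWAT) to a high-fat diet (HFD) was measured in mice bred to lack laminin alpha 4 in adipocytes. The comparison takes the 12 mice labelled Lama4 AKO out of the 24 in the series, 6 fed HFD against 6 fed chow, and covers 15020 genes. All mice were male littermates. Lama4 AKO mice carry loxP sites around exon 3 of Lama4 and a Cre driven by the adiponectin promoter, which acts in adipocytes. The Lama4 fl/fl controls carry the loxP sites alone, and the labels call them wild type. By the paper's methods diets were given for 20 weeks, either 45% fat or a breeder chow, and the mice were adults when the fat was collected. Its figure legends give chow from weaning and HFD from a set age, with a later age at the end of HFD. Diet and age at collection therefore cannot be told apart. The other 12 mice, 6 Lama4 fl/fl on each diet, enter the fit for a shared estimate of spread and for a test of whether the diet response differed between genotypes.

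White adipocytes store triglyceride, make fatty acids from glucose, and secrete hormones such as leptin and adiponectin. Prolonged fat feeding enlarges adipocytes until some die, and macrophages gather around the remnants and take up lipid. Mast cells are tissue-resident granulocytes filled with proteases, histamine and serotonin, and they are known to collect in the fat of obese mice. Laminin alpha 4 is a chain of the basement membrane that surrounds each adipocyte and capillary.

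Libraries of the 12 Lama4 AKO mice held 5579590 to 16457720 counts. Values below are counts scaled to library size (CPM) with TMM factors, and fold changes are log2 values of HFD minus chow with their standard error (SE). A gene was called where the fold change was at least 1.5, the nominal p was at most 0.001 and the group with more had a mean of 2 CPM or over, thresholds taken from the study, in edgeR's quasi-likelihood test. Adjusted p-values are those of Benjamini and Hochberg over all 15020 genes. The label of the tissue fits its markers in every library: the 10 mature adipocyte markers, such as the adipocyte hormone Adipoq, summed to between 14460 and 39160 CPM on chow and between 8711 and 23640 CPM on HFD. These markers do not tell epididymal fat from other white fat. Of 11 epididymis and sperm genes only 3 were in the deposited counts, and 0 passed the filter on low counts.

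Libraries from chow mice 5 and 6 and HFD mouse 6 stood apart from their groups. The first principal component of the 12 libraries held 52.3% of the variance. On it chow mouse 5 scored 18.1 and chow mouse 6 -7.54, where the other chow mice scored -82.4 to -42.4. HFD mouse 6 scored -2.26 where the other HFD mice scored 39.8 to 61.2. On the second component, with 10.6% of the variance, chow mouse 6 scored -63.5 and the other libraries -20.9 to 30.2. The study removed outlying samples that its text does not name, and all 12 were kept here. The mitochondrial rRNAs mt-Rnr1 and mt-Rnr2 are the RNA components of the mitochondrial ribosome. Their share of counts moved with the first component and with diet. It was 0.957% to 5.14% on chow, with a median of 3.11% and the lowest value in chow mouse 5. On HFD it was 0.245% to 0.919%, with a median of 0.267% and the highest value in HFD mouse 6. The diets did not overlap (two-sided exact permutation test, p = 0.002165, the smallest that 6 against 6 mice can give). Mitochondrial mRNAs took 4.68% to 9.51% on chow and 6.43% to 9.17% on HFD (exact permutation p = 0.2835). Small nucleolar RNAs took 0.0109% to 0.0264% on chow and 0.00345% to 0.00923% on HFD, without overlap (exact permutation p = 0.002165). Ribosomal protein genes took 2.62% to 4.39% on chow and 4.29% to 5.41% on HFD (exact permutation p = 0.004329). Whether the mitochondrial rRNA share reflects the tissue or the preparation of the RNA was not tested, and values with it as a term of the fit are given with the groups of genes. This measure was chosen after the data were seen.

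Lama4 itself (chromosome 10, 38965515 to 39110188, GRCm38) cannot check the deletion directly. QuantSeq reads come from the 3′ end of a transcript, and the deleted exon lies upstream. Lama4 was at 64.2 CPM in the lowest, 113 in the median and 134 in the highest chow-fed mouse, against 36.4, 44.3 and 92.5 on HFD. The highest HFD value was that of mouse 6 and the lowest chow value that of mouse 5, so the groups overlapped. The log2 fold change was -1.05 (SE 0.347, adjusted p = 0.0364), and Lama4 was not called because its nominal p was 0.00589. In Lama4 fl/fl mice Lama4 was at 41.2, 91.7 and 196.5 CPM on chow and at 32.4, 78.7 and 135.3 CPM on HFD. Its chow median was thus not lower in Lama4 AKO than in Lama4 fl/fl mice. The paper reports a knockdown of Lama4 in eWAT of chow-fed Lama4 AKO mice by quantitative PCR.

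Of the 15020 genes, 619 (4.12%) were called, 194 higher on HFD (1.29%) and 425 lower (2.83%). Of these, 82 of the higher and 307 of the lower genes changed at least 2-fold, and 27 and 70 at least 4-fold. The adjusted p of called genes was at most 0.0210, and 3315 genes (22.1%), 1372 higher (9.13%) and 1943 lower (12.9%), had an adjusted p of at most 0.05. The log2 CPM of the 6 HFD mice did not overlap that of the 6 chow mice for 1030 genes (6.86%), among them 336 of the 619 called. The plot of fold change against p shows 9 mast cell genes among the 27 that rose at least 4-fold, and more called genes on the lower side.

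**Figure D1:**
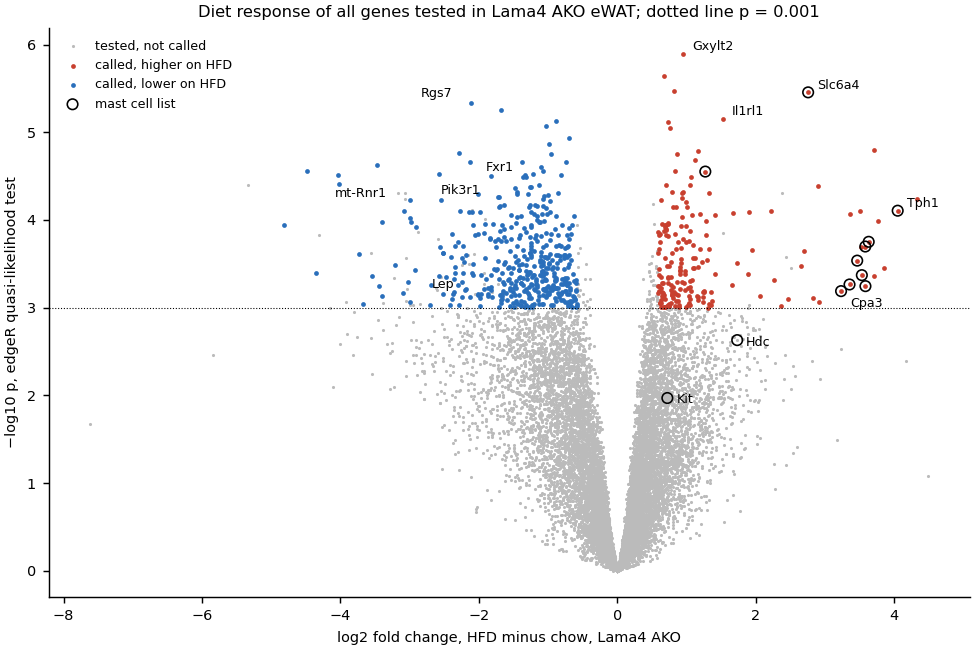
Log2 fold change of each of 15020 genes (HFD minus chow, Lama4 AKO mice, n = 6 a diet) against −log10 p of edgeR's quasi-likelihood test, with 194 called higher genes in red, 425 called lower genes in blue and the 12 genes of the mast cell list ringed. Of the ringed genes 10 lie above the dotted threshold line, and Hdc and Kit lie below it.

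The number of calls depended on single mice. It was 1169 without chow mouse 5 and 1055 without HFD mouse 6, and 709 without chow mouse 6. It was 358 without chow mouse 1, 409 without chow mouse 2, 299 without chow mouse 3 and 439 without chow mouse 4. It was 366, 403, 412, 324 and 364 without HFD mice 1, 2, 3, 4 and 5. Limma-voom on the same mice called 307 genes higher (2.04%) and 297 lower (1.98%). In all, 232 genes were called with edgeR in each of these 12 fits. With the mitochondrial rRNA share as a term in the fit of the 24 mice, the number fell to 42 (0.279% of the genes in that fit), 5 higher and 37 lower, of which 2 were also called without it.

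Of the gene lists examined, the mast cell list had the highest median. All 12 genes of the mast cell list were higher on HFD with an adjusted p of at most 0.05, and 10 were called, against 1.29% of all genes called higher. The median log2 fold change of the list was 3.41, where the median of all genes tested was -0.0031. Of the 27 genes that rose at least 4-fold, 9 were on this list. The paper labels Tpsb2 among the top genes of this comparison, and the list was chosen with earlier results of these data known. These counts are therefore a description and not a test. In whole tissue, more cells of a type and more RNA per cell cannot be told apart.

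The list holds granule proteases, subunits of the IgE receptor, and enzymes and carriers of serotonin and histamine. The proximal promoters of 3 of its called genes, and of Slc6a4, the called mast cell gene with the lowest p, are shown because mast cell genes are known targets of the factor GATA2, which binds the core GATA and whose own gene was also called. Each window runs from 250 bases before to 50 bases after a RefSeq start site on the gene's strand (GRCm38.p6), with the letters GATAA, or TTATC on the other strand, in capitals.

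Cpa3, minus strand, chr3:20242132-20242431: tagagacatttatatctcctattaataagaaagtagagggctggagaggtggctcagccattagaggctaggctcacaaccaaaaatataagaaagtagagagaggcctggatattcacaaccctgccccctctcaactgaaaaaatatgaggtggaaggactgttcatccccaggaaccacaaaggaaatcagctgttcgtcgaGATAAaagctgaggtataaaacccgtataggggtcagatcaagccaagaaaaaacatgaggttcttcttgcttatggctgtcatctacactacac
Mcpt4, minus strand, chr14:56062261-56062560: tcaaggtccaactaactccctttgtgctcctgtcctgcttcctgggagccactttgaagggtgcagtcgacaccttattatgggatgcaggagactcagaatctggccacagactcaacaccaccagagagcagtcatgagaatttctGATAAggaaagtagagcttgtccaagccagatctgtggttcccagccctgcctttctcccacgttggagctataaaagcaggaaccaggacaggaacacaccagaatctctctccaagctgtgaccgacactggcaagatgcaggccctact
Ms4a2, minus strand, chr19:11623670-11623969: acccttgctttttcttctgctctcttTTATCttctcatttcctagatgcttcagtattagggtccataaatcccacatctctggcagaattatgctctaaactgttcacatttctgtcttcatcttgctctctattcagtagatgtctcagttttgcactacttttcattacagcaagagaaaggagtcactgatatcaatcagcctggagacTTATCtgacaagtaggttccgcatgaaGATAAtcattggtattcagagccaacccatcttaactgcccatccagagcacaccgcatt
Slc6a4, plus strand, chr11:76998347-76998646: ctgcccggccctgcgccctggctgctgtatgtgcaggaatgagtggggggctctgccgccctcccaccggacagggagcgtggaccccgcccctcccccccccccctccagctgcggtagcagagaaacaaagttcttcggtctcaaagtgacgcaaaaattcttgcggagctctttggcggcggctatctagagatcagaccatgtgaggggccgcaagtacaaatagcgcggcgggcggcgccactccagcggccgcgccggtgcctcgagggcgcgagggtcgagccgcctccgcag

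Cpa3 and Mcpt4 have 1 match to GATAA or TTATC each, Ms4a2 has 3 and Slc6a4 has 0. The shorter core GATA was not counted. The Slc6a4 window holds that core on the other strand, as the letters tatc in ggctatctag, left in lower case. RefSeq gave 13 windows for 10 of the 12 genes of the list, and 5 of them held a match. The 3 windows shown besides that of Slc6a4 all hold a match, so they do not stand for the list. Of those not shown, Cma1 and Fcer1a hold 1 match each, and the windows of Kit, Gata2, Hdc and Tph1 hold 0. Over all 32851 windows the share was 25.4%. A match of 5 letters is a description of the sequence and not a binding site.

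All 5 protease genes of the list rose. Cpa3, mast cell carboxypeptidase, was at 5.52 CPM in the lowest, 14.3 in the median and 123 in the highest chow-fed mouse. On HFD these values were 166, 430 and 477 CPM, so every HFD mouse was above every chow mouse. The log2 fold change of Cpa3 was 3.23 (SE 0.824, adjusted p = 0.0187). The beta tryptase gene Tpsb2 ran from 13.3 to 173 CPM on chow with a median of 19.2, and from 221 to 816 CPM on HFD with a median of 613. Its log2 fold change was 3.36 (SE 0.841, adjusted p = 0.0180). The chymase gene Cma1 (log2 3.47), the chymase-family gene Mcpt4 (3.53) and the tryptase gene Tpsab1 (3.58) also rose, none of them with overlap between the diets. For each of these 5 genes the highest chow value was that of mouse 5 and the lowest HFD value that of mouse 6.

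Receptor subunits and genes of monoamine handling moved with the proteases. Fcer1a and Ms4a2, which encode the alpha and beta chains of the high-affinity IgE receptor, rose by log2 3.59 (SE 0.902, adjusted p = 0.0182) and 3.63 (SE 0.819, adjusted p = 0.0136). Tph1, the enzyme that commits tryptophan to serotonin outside the brain, was at 0.131, 0.411 and 3.24 CPM (lowest, median, highest) on chow and at 5.10, 18.2 and 25.5 CPM on HFD. Its log2 fold change of 4.05 (SE 0.851, adjusted p = 0.0124) was the largest of the list. Slc6a4, the serotonin transporter, was at 0.460, 1.27 and 2.70 CPM on chow and at 3.67, 9.045 and 13.1 CPM on HFD (log2 2.76, SE 0.459, adjusted p = 0.0121). Gata2, the transcription factor, rose by a smaller log2 1.27 (SE 0.246, adjusted p = 0.0124), from 4.76 to 7.42 CPM on chow to between 8.86 and 19.5 CPM on HFD. The histamine-forming enzyme Hdc (log2 1.73, adjusted p = 0.0259) and the stem cell factor receptor Kit (log2 0.72, adjusted p = 0.0492) were not called. The limit that a zero leaves, 3 counts, stood at 0.182 to 0.538 CPM in these libraries, and some chow values of Tph1, Fcer1a and Ms4a2 lay under that limit, so that their exact fold rests on few reads.

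**Figure D2:**
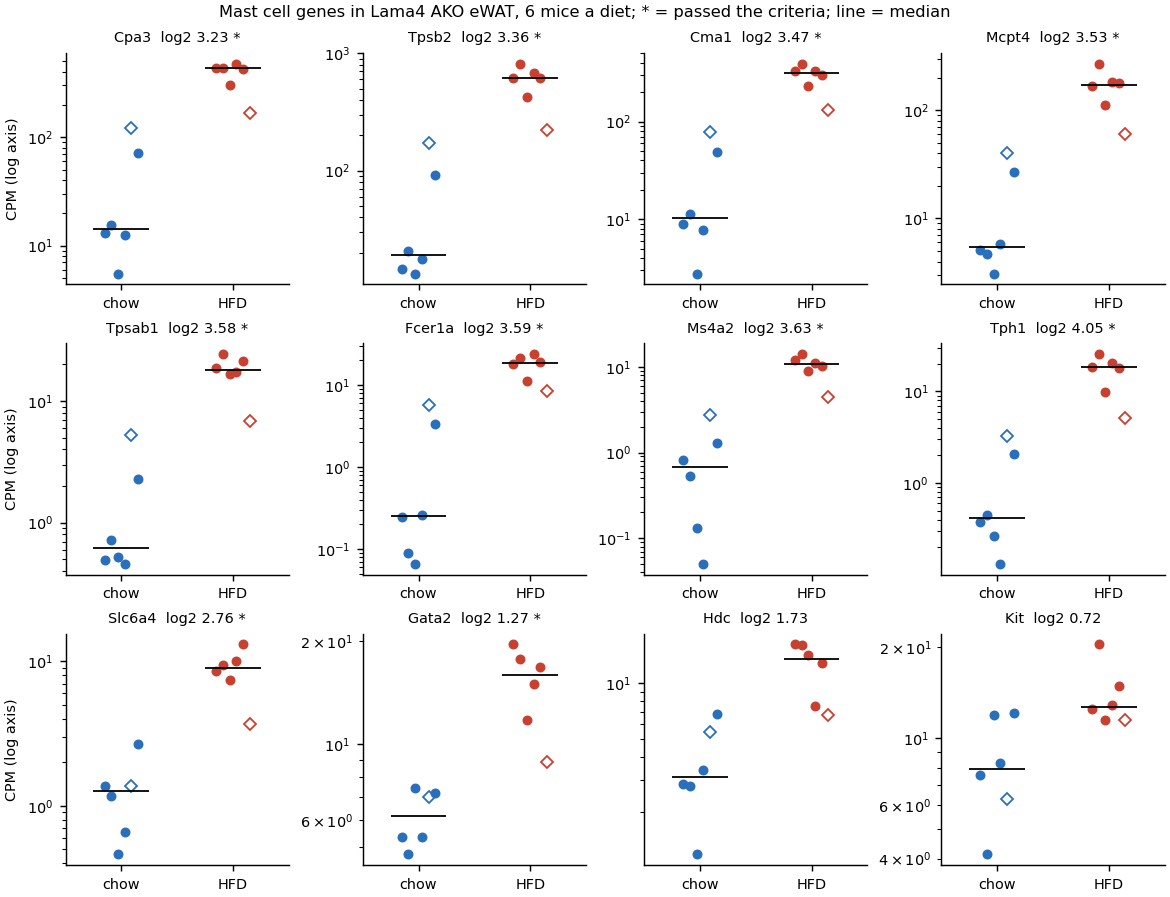
CPM on a log axis of the 12 genes of the mast cell list in each Lama4 AKO mouse, 6 chow (blue) and 6 HFD (red), with the group median as a line, open diamonds for chow mouse 5 and HFD mouse 6, and 1 value of 0 (Ms4a2, chow) drawn at the bottom of its axis. For Cpa3 the chow mice lie between 5.52 and 123 and the HFD mice between 166 and 477, and the diamonds lie at the edges nearest the other diet.

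Other genes that mast cells are known to express rose as well. By the rule for named genes these were the receptors Mrgprb2 (log2 3.71, SE 0.688, adjusted p = 0.0124) and Il1rl1, the IL-33 receptor (log2 1.52, SE 0.266, adjusted p = 0.0121). Il1rl1 was at 9.79 to 23.2 CPM on chow and 25.7 to 51.2 CPM on HFD, without overlap. The vesicular monoamine transporter Slc18a2 (log2 3.51) and the receptor Mrgprb1 (3.52) were also called, and were picked after their values were seen. Some chow values of Mrgprb2 and Slc18a2 lay under the limit of 3 counts too.

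Calls among mast cell genes were lost in part when single mice were left out. Between 5 and 10 of the list were called in the 12 such fits, 5 without chow mouse 2 and 6 without chow mouse 1, 3 or 4 or without HFD mouse 2. Cpa3 was not called without any of chow mice 1 to 4 or HFD mice 1, 2, 4 and 5, and Tpsb2 not without any of chow mice 1 to 4 or HFD mouse 2. Their log2 fold changes stayed between 3.002 and 3.99 and between 3.15 and 4.15, the highest value of each being that without chow mouse 5. Slc6a4, Gata2, Mrgprb2 and Il1rl1 were called in all 12. With the mitochondrial rRNA share as a term the median of the list was 0.83 and 0 of 12 were called, Slc6a4 having log2 1.34 (SE 0.544, adjusted p = 0.506) and Cpa3 0.72 (adjusted p = 0.835). The mice with the closest shares across the diets, chow mouse 5 with 0.957% and HFD mouse 6 with 0.919%, had 123 and 166 CPM of Cpa3, and 1.37 and 3.67 CPM of Slc6a4. In the Lama4 fl/fl mice the median of the list was log2 1.55 and 0 were called, where 26 genes (0.173%) were called in all. The difference between the genotypes was called for 0 of the 12 (Slc6a4 1.33, SE 0.622, adjusted p = 0.310). Cpa3 in HFD-fed Lama4 fl/fl mice ran from 13.7 to 537 CPM.

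**Figure D3:**
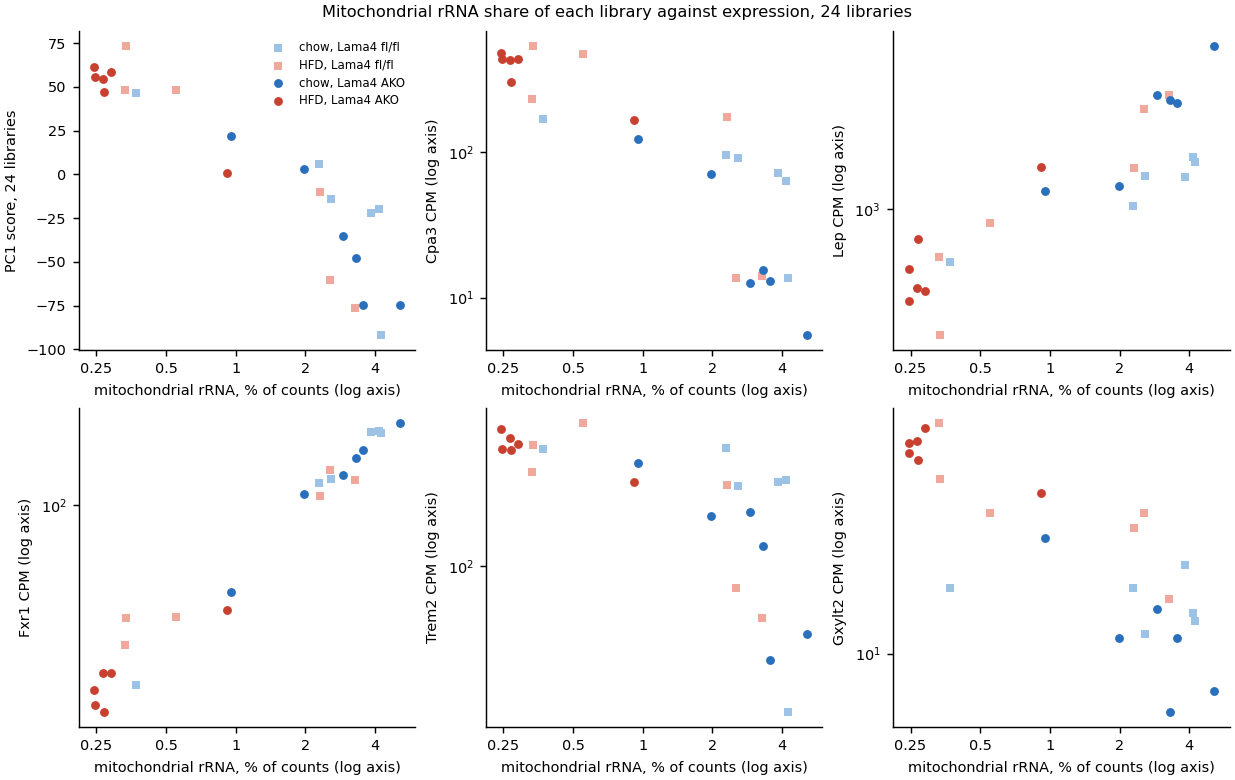
Mitochondrial rRNA share of each of the 24 libraries (percent of counts, log axis) against its score on the first principal component and against the CPM of 5 genes (log axes), with Lama4 AKO mice as circles, Lama4 fl/fl mice as squares, chow in blue and HFD in red. Of the HFD-fed Lama4 AKO mice 5 lie below 0.3% and the sixth lies beside the lowest chow-fed Lama4 AKO mouse, and the Lama4 fl/fl mice of both diets spread over the same range.

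Most genes of the adipocyte and fat synthesis lists had values below 0. Leptin (Lep), the adipocyte hormone that signals fat stores, was called. It was at 1215 CPM in the lowest, 3075 in the median and 5530 in the highest chow-fed mouse, against 382, 487 and 1550 on HFD. Chow mice 5 and 6 lay below HFD mouse 6 and above the other HFD mice. The log2 fold change of Lep was -2.10 (SE 0.512, adjusted p = 0.0170). Of 12 adipokines tested, Lep was the 1 called and 6 had an adjusted p of at most 0.05 and a lower level (median log2 -1.35), against 12.9% of all genes. Adiponectin (Adipoq) had log2 -1.44 (SE 0.507, adjusted p = 0.0452) and resistin (Retn) -2.54 (SE 0.710, adjusted p = 0.0230), neither called. The 10 mature adipocyte markers all had values below 0 with a median of -1.28, and 0 were called and 4 had an adjusted p of at most 0.05. Lipe, the hormone-sensitive lipase, had log2 -1.25 (adjusted p = 0.0413), Pnpla2, the first lipase of triglyceride breakdown, -0.66 (adjusted p = 0.172), and Adrb3, the adrenergic receptor that triggers lipolysis, -2.12 (SE 0.929, adjusted p = 0.0938).

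Of 16 lipogenic genes, 1 was called lower, where 2.83% of all genes were, and 8 were lower with an adjusted p of at most 0.05, where 12.9% of all genes were (median log2 -0.84). The called gene, Elovl6, which lengthens palmitate to stearate, was at 19.3, 32.9 and 46.1 CPM (lowest, median, highest) on chow and at 8.65, 9.89 and 29.6 CPM on HFD. The highest HFD value was again mouse 6, and the other 5 HFD mice lay below every chow mouse. Its log2 fold change was -1.35 (SE 0.355, adjusted p = 0.0201). Fasn, fatty acid synthase, was not called, with log2 -1.50 (SE 0.465, adjusted p = 0.0301), nor was the lipogenic transcription factor Mlxipl, -1.08 (adjusted p = 0.0240), or acetyl-CoA carboxylase Acaca, -0.91 (adjusted p = 0.0504).

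Of 20 genes of sterol synthesis and its control, 3 were called, all lower, against 2.83% of all genes (median -0.51), and limma-voom called 0 of the list. Insig1, which holds back the activation of SREBP, was at 46.7 to 211 CPM on chow and 30.2 to 53.7 CPM on HFD (log2 -1.75, SE 0.422, adjusted p = 0.0166). Hsd17b7, an enzyme of the later steps, fell too (log2 -1.08, adjusted p = 0.0167). Sqle, squalene epoxidase, had log2 -0.36 (adjusted p = 0.236).

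All 12 genes of insulin signaling and glucose uptake had values below 0 (median -0.55), and 1 was called, against 2.83% of all genes called lower. Pik3r1, the regulatory subunit of PI3-kinase, was at 83.5, 162 and 206 CPM on chow and at 32.1, 43.0 and 83.1 CPM on HFD (log2 -1.72, SE 0.351, adjusted p = 0.0124), with chow mouse 5 and HFD mouse 6 almost touching. The insulin-responsive glucose transporter Slc2a4 had log2 -1.10 (SE 0.399, adjusted p = 0.0496). Of 7 genes of caveolae, the membrane pits dense on adipocytes and endothelium, 0 were called, all lay below 0 and 4 had an adjusted p of at most 0.05, against 12.9% of all genes (median -0.83). Pck1, the enzyme of glyceride-glycerol synthesis in fat, ran from 53.7 to 341 CPM on chow and from 78.4 to 173 on HFD (log2 -0.39, SE 0.710, adjusted p = 0.699). Cd36, a fatty acid carrier, had log2 0.03 (SE 0.162, adjusted p = 0.915).

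**Figure D4:**
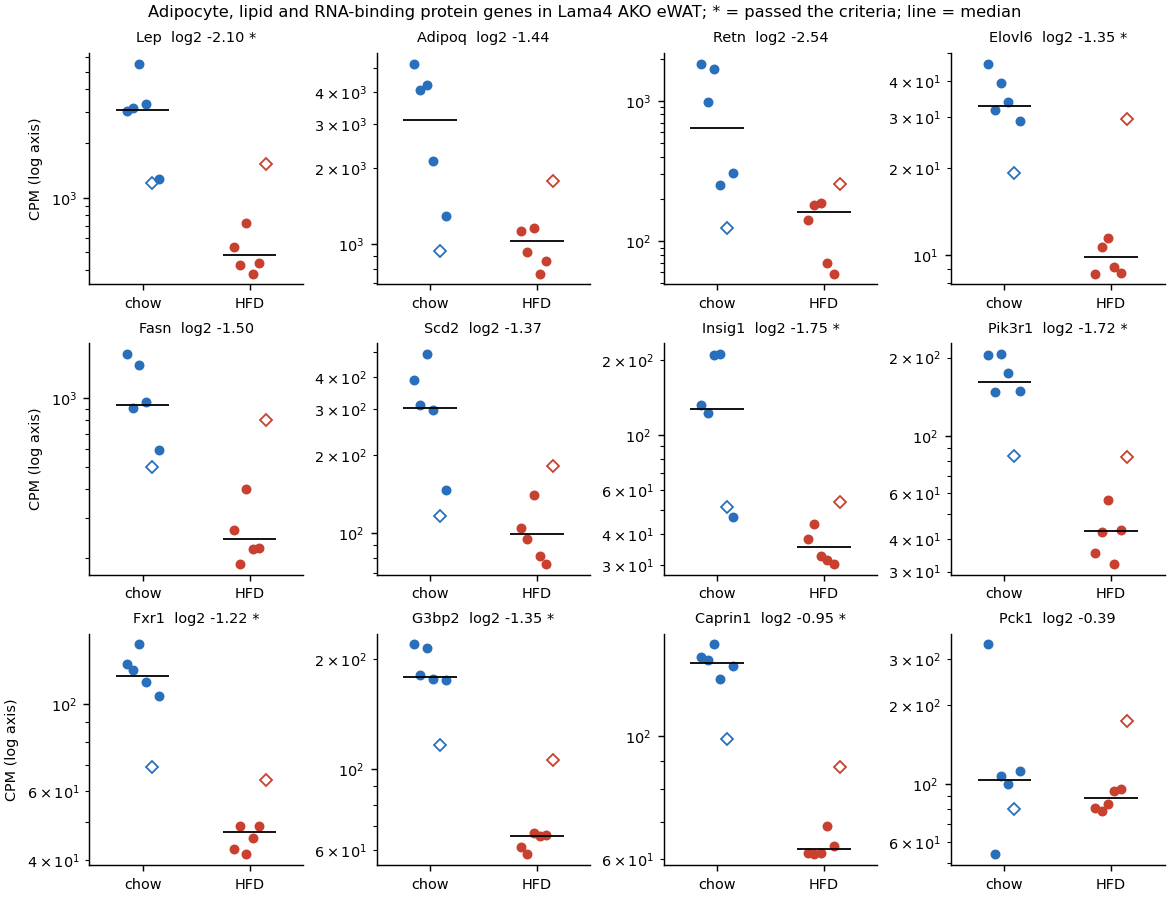
CPM on a log axis of 12 adipocyte, lipid and RNA-binding protein genes in each Lama4 AKO mouse, 6 chow (blue) and 6 HFD (red), with the group median as a line and open diamonds for chow mouse 5 and HFD mouse 6. For Lep 5 HFD mice lie below every chow mouse and HFD mouse 6, at 1550, lies above chow mice 5 and 6.

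Several of these calls depended on single mice. Lep was not called without chow mouse 3 or without HFD mouse 1, 2, 4 or 5 (log2 -2.55 to -1.82 over the 12 fits). Elovl6 was not called without any of chow mice 1 to 4 or HFD mice 1 to 5 (-1.78 to -1.24). Insig1 was not called without chow mouse 3 or 4 or HFD mouse 4 or 5 (-1.94 to -1.56), and the count for the sterol list went from 0, without chow mouse 3 or 4 or HFD mouse 5, and 1 without HFD mouse 4, to 6 without chow mouse 5 or 6 and 5 without HFD mouse 6. Hsd17b7 was not called without chow mouse 3 or 4 or HFD mouse 5. Pik3r1 was called in all 12. When the mitochondrial rRNA share was a term, Lep had log2 0.01 (SE 0.331), Elovl6 -0.22, Insig1 -0.22 and Pik3r1 -0.13, none called, and the medians were 0.04 for adipokines, 0.33 for mature adipocyte markers, 0.01 for lipogenic genes, -0.28 for sterol genes, 0.25 for insulin signaling and 0.13 for caveolae. In the 2 mice of closest share, chow mouse 5 and HFD mouse 6, Lep was at 1215 and 1550 CPM and Pik3r1 at 83.5 and 83.1 CPM. Some genes of other kinds differed between the same 2 mice, with the clock gene Nr1d2 at 30.9 and 52.3 CPM and Stoml2 at 30.6 and 20.2 CPM. Others were closer, with Lama2 at 45.9 and 43.0 CPM and Fn1 at 521 and 556 CPM. These examples were picked after their values were seen. A pair of single mice was not tested. The medians in Lama4 fl/fl mice were -0.06 for adipokines and 0.33 for lipogenic genes. The difference between genotypes was called for 2 of the 16 lipogenic and 2 of the 20 sterol genes, among them Insig1 with -2.50 (adjusted p = 0.220), against 0.386% of all genes.

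Most macrophage genes had values above 0 that did not pass the criteria. Of 13 lipid-associated macrophage genes 11 had values above 0 (median log2 1.39), 2 were higher with an adjusted p of at most 0.05, against 9.13% of all genes, and 0 were called higher. Trem2, the lipid receptor that names this state, was at 31.8, 156 and 354 CPM on chow and at 280, 432 and 532 CPM on HFD (log2 1.45, SE 0.603, adjusted p = 0.0789). The highest chow value was that of mouse 5 and the lowest HFD value that of mouse 6. Gpnmb, a lysosomal glycoprotein of lipid-laden macrophages, ran from 175 to 3678 CPM on chow and from 2079 to 6920 on HFD (log2 1.89, SE 0.724, adjusted p = 0.0598). The integrin Itgax, CD11c, had log2 1.59 (SE 0.537, adjusted p = 0.0389). The 1 called member, the tartrate-resistant phosphatase Acp5, fell by 0.849 on the log2 scale (SE 0.218, adjusted p = 0.0190), and was not called without any of chow mice 1 to 4 or HFD mice 1 to 5.

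All 13 pan-macrophage markers had values above 0 (median 0.76) and 0 were called. Cd68, an endosomal macrophage protein, had log2 1.46 (SE 0.527, adjusted p = 0.0490) and Adgre1, which encodes F4/80, 0.94 (SE 0.494, adjusted p = 0.155). The 18 lysosome genes all lay above 0 (median 0.66), with 4 at an adjusted p of at most 0.05, against 9.13% of all genes, and 0 called. Of 8 resident perivascular macrophage genes 5 lay below 0 and 3 above (median -0.70), 2 were lower with an adjusted p of at most 0.05 and 0 were called, with Lyve1 at -1.56 (SE 0.527, adjusted p = 0.0394). In the fit with the mitochondrial rRNA share the medians were -0.08 for lipid-associated, -0.33 for pan-macrophage, -0.09 for lysosome and -0.18 for perivascular macrophage genes. In Lama4 fl/fl mice they were -0.08 and 0.02.

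Few members of the other immune lists were called, 4 in all, and all were lower. They were 2 of 14 type I interferon response genes, 1 of 7 MHC class II genes and 1 of 8 acute-phase genes. Of 12 complement, 6 neutrophil, 22 cytokine and chemokine, 11 B cell and 11 T cell genes 0 were called. Where 2.83% of all genes were called lower, such counts do not set these lists apart. Ifit3 (log2 -1.12, SE 0.242, adjusted p = 0.0126) and Ifit2 (-1.301, SE 0.321, adjusted p = 0.0174), antiviral proteins induced by interferon, were 2 of 14 type I interferon response genes called (median -0.34). Ifit2 was not called without chow mouse 3 or 6 or HFD mouse 3 or 4, nor with limma-voom. Ciita, the master regulator of MHC class II transcription, fell from a chow median of 7.69 CPM to 2.77 (log2 -1.98, SE 0.417, adjusted p = 0.0124), with the highest chow mouse, mouse 6, at 34.2 CPM. Without that mouse the log2 fold change of Ciita was -1.33, and limma-voom did not call it. Of the 7 MHC class II genes, Ciita among them, 5 had values above 0 (median 0.06). Haptoglobin (Hp), the 1 acute-phase gene of 8 called, ran from 1989 to 5890 CPM on chow and from 1018 to 1813 on HFD, without overlap (log2 -1.33, SE 0.259, adjusted p = 0.0124). Saa3 (-1.04, adjusted p = 0.0824) and Lcn2 (-0.10, adjusted p = 0.903) were not called. Of 22 cytokine and chemokine genes 0 were called, with Tnf at 0.89 and Ccl2 at -0.33. The 11 B cell genes all lay above 0 (median 1.02) and the 11 T cell genes on both sides (median 0.04), with 0 called in either. Without chow mouse 6, which had 11.9 CPM of the T cell receptor subunit Cd3e where the other chow mice had 0.342 to 1.503, the T cell median was 1.41. Limma-voom gave a T cell median of 0.63, and with the mitochondrial rRNA share as a term the medians were -2.49 for T cells and -1.48 for B cells. With the share as a term Hp had log2 -1.18 (adjusted p = 0.334), Ciita -1.52 (adjusted p = 0.460) and Ifit3 -0.78 (adjusted p = 0.501).

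Lists of matrix and stromal genes held few calls in either direction. Of 17 basement membrane genes 12 lay below 0, and 4 were lower and 1 higher with an adjusted p of at most 0.05. Of 13 metalloproteinases and inhibitors 6 lay below 0, and 3 were lower and 4 higher with such a p. In each of the lists of collagens, basement membrane, metalloproteinases and progenitor markers 1 gene was called higher, where 1.29% of all genes were. Fn1, fibronectin, went from 267 to 521 CPM on chow to between 546 and 853 on HFD (log2 0.90, SE 0.237, adjusted p = 0.0207). Lama2, a laminin alpha chain, rose by log2 0.80 (SE 0.166, adjusted p = 0.0124) and was the 1 of 17 basement membrane genes called, in a list with a median of -0.11. Mmp11, a metalloproteinase of stromal cells, was at 13.3, 17.3 and 46.8 CPM on chow and at 27.3, 52.1 and 73.2 on HFD (log2 1.25, SE 0.318, adjusted p = 0.0187). Pdgfra, the receptor that marks adipocyte progenitors, rose by log2 0.69 (SE 0.183, adjusted p = 0.0210), and 9 of the 10 progenitor markers lay above 0. Col6a3 had log2 0.82 (adjusted p = 0.0227) and Col3a1 0.63 (adjusted p = 0.0820), neither called. In the IGF system Igfbp7 rose by 1.03 (adjusted p = 0.0205) and Igfbp5 fell by 1.67 on the log2 scale (adjusted p = 0.0190). Msln, which marks the mesothelium that covers the fat pad, fell by 2.36 on the log2 scale (SE 0.603, adjusted p = 0.0188), from a chow median of 4.23 CPM to 2.07, and 7 of 8 mesothelial markers lay below 0.

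Of these genes only Lama2 was called in all 12 fits that left out a mouse. Fn1 was called in 1 of them, without chow mouse 5, and Pdgfra in 2, without chow mouse 4 or 5. Mmp11 was called in 3, without chow mouse 5 or HFD mouse 1 or 2. Igfbp7 was called in 3, without chow mouse 5 or 6 or HFD mouse 6, and Igfbp5 in 4, without chow mouse 4, 5 or 6 or HFD mouse 6. Msln was called in 5, without chow mouse 3, 4, 5 or 6 or HFD mouse 3. Limma-voom called neither Igfbp5 nor Msln. Fitted with the mitochondrial rRNA share, Fn1 had log2 0.05, Lama2 0.35, Mmp11 1.12, Pdgfra 0.44 and Msln -1.59, and none was called.

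Of 12 stress granule RNA-binding proteins, 3 were called, all lower, against 2.83% of all genes, and 4 of the 12 had values above 0 (median -0.61). The paper labels these 3, Fxr1, G3bp2 and Caprin1, among the top genes of this same comparison. The list was chosen with earlier results of these data known, so its count is a description and not a test. Fxr1, a relative of the fragile X protein, was at 69.2, 118 and 142 CPM on chow and at 41.3, 47.1 and 64.0 on HFD (log2 -1.22, SE 0.238, adjusted p = 0.0124). G3bp2, which nucleates stress granules, was at 116, 178 and 219 CPM on chow and at 58.5, 65.8 and 106 on HFD (log2 -1.35, SE 0.295, adjusted p = 0.0127). Caprin1, its binding partner, fell by 0.950 on the log2 scale (SE 0.224, adjusted p = 0.0157). None of the 3 overlapped between diets, each was called in all 12 fits, and in each chow mouse 5 was the lowest and HFD mouse 6 the highest of its group. The paralogs G3bp1 (log2 0.21, adjusted p = 0.134) and Fxr2 (0.07, adjusted p = 0.732) were not called. With the share as a term Fxr1 had log2 -0.08, G3bp2 0.05 and Caprin1 0.09.

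Single members were called in other lists. Pdia4, a disulfide isomerase of the endoplasmic reticulum, fell by 1.55 on the log2 scale and was not called by limma-voom. Psmc1, a proteasome ATPase, fell by 1.296 and was not called without any of chow mice 1 to 4 or HFD mice 1 to 3. Eif4e3, a cap-binding protein, fell by 0.769 and was not called without chow mouse 1. The mitochondrial mRNA mt-Nd6 fell by 2.01, where the median of the 8 mitochondrial mRNAs tested was 0.03. Nr1d2, a repressor of the circadian clock, rose from 21.4 to 31.9 CPM on chow to between 52.3 and 85.2 CPM on HFD (log2 1.32, SE 0.268, adjusted p = 0.0124). When the mitochondrial rRNA share was a term, none of the 5 was called, and the log2 values were 0.06 for Pdia4, 0.05 for Psmc1, -0.10 for Eif4e3, -0.15 for mt-Nd6 and 0.29 for Nr1d2. The Nr1d2 paralog Nr1d1 had log2 0.12 (adjusted p = 0.796), Arntl 0.36 and Dbp 0.22. Of 82 cytosolic ribosomal protein genes 74 had values above 0 (median 0.41, and 0.03 with the share as a term) and 0 were called, and of 73 nuclear subunits of oxidative phosphorylation 35 lay above 0 (median -0.01) and 0 were called.

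**Figure D5:**
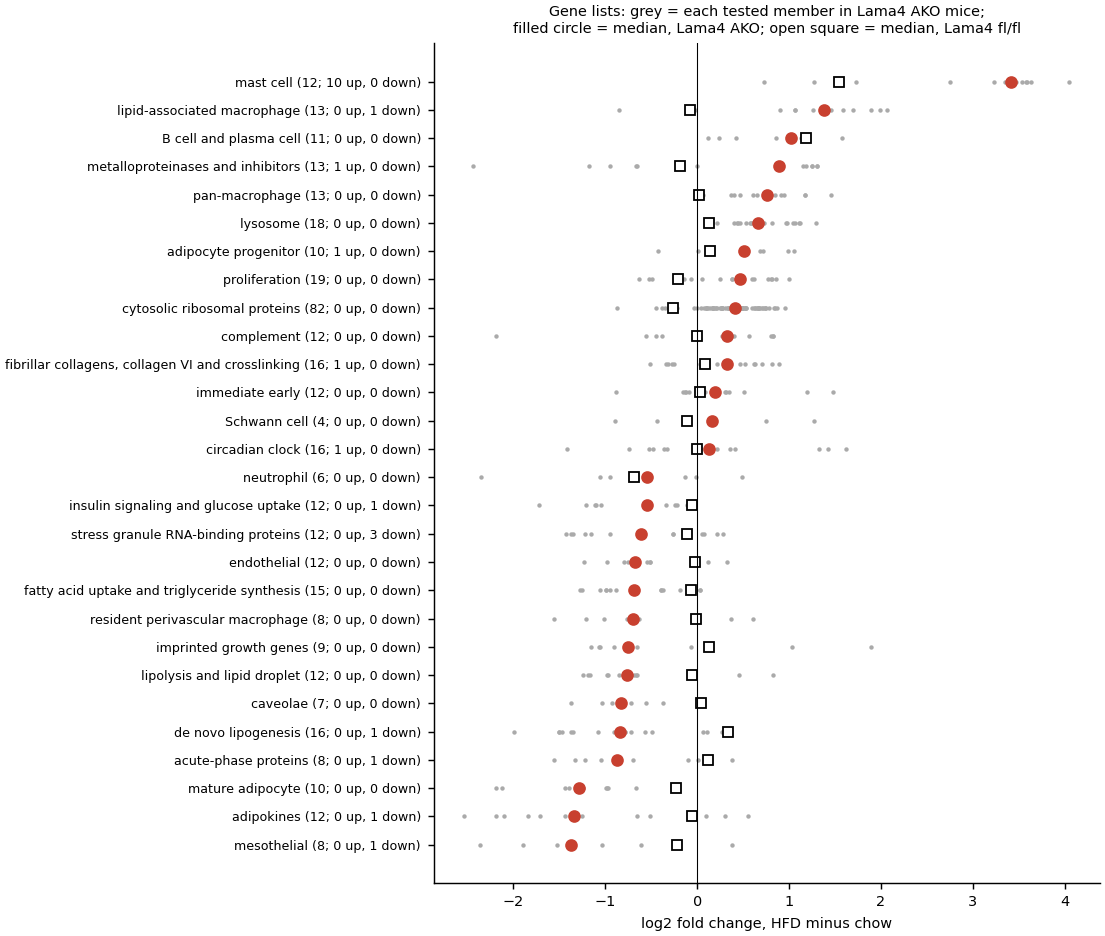
Log2 fold change (HFD minus chow) of the tested members of the 28 gene lists with the 14 lowest and the 14 highest medians, each grey point 1 gene in Lama4 AKO mice, filled circles the list median in Lama4 AKO mice and open squares that in Lama4 fl/fl mice, with the number tested, called higher (up) and called lower (down) in brackets. The mast cell list has a median of 3.41 in Lama4 AKO and 1.55 in Lama4 fl/fl mice, and the adipokine list -1.35 and -0.06.

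The genes with the lowest p-values belonged to no single list. Gxylt2, a xylosyltransferase that extends sugars on Notch-type repeats, was at 8.08, 10.6 and 15.2 CPM on chow and at 17.9, 21.1 and 22.7 on HFD, without overlap (log2 0.95, SE 0.147, adjusted p = 0.0121). Plscr4, a phospholipid scramblase family member, was at 14.96 to 22.5 CPM on chow and 27.1 to 32.8 on HFD (log2 0.67, SE 0.109, adjusted p = 0.0121). Armcx2 (log2 0.82), Wdr13 (0.76), the carboxylesterase gene Ces2g (1.16) and Tmem62 (0.86) rose in the same way, all called in all 12 fits. Among those that fell, Rgs7, a regulator of G protein signaling, was at 3.07, 8.63 and 11.7 CPM on chow and at 1.26, 1.89 and 2.74 on HFD (log2 -2.11, SE 0.358, adjusted p = 0.0121). Ptprf, a receptor tyrosine phosphatase (-0.89), Copg2, a coat protein of vesicles (-1.03), Cspp1 (-0.70), Stoml2, a mitochondrial inner membrane protein (-0.99), Plppr4 (-2.29), Gda, guanine deaminase (-0.96), Paip2b, an inhibitor of poly(A)-binding protein (-2.13), Sub1 (-1.37) and the importin Kpna3 (-1.11) fell too, and all were called in all 12 fits. Cck, cholecystokinin, a peptide best known from gut and brain, was at 6.83, 33.7 and 109 CPM on chow and at 1.31, 3.86 and 15.7 on HFD (log2 -2.99, SE 0.787, adjusted p = 0.0203). It was called without chow mouse 1, 5 or 6 or HFD mouse 6 and lost the call without any other of the 12 mice and with limma-voom. Its log2 fold change was -3.66 without HFD mouse 6.

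With the mitochondrial rRNA share as a term, Gxylt2 had log2 0.56 (SE 0.170), Plscr4 0.45 (SE 0.135), Rgs7 -0.92 (SE 0.370) and Cck -2.09 (SE 0.997), with adjusted p-values from 0.326 to 0.579. In that fit 7673 of 15072 genes (50.9%) had a slope on the share with an adjusted p of at most 0.05. Over the 617 called genes that it held, the median size of the log2 change of diet was 0.234 with the term and 1.15 without, with 490 keeping their sign. These genes were selected for large changes without the term, so smaller values with it follow in part from that selection. Diet and the share moved together in the Lama4 AKO mice, so how much of a difference belongs to each cannot be told apart in these 12 mice.

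In the Lama4 fl/fl mice 26 genes were called for the same diet, and 2 of the 619 were among them. The paper, using limma-voom with outlying samples removed, called many more genes for diet in each genotype. It also found a large set in common between the genotypes. The low count here therefore does not show that Lama4 fl/fl fat lacked a diet response. Of the 619, 507 had the same sign in Lama4 fl/fl mice, with a median log2 of 0.20 for those that rose and -0.27 for those that fell in Lama4 AKO mice, where the medians were 0.93 and -1.26. The 619 were selected for large changes in Lama4 AKO mice, so smaller medians in Lama4 fl/fl mice follow in part from that selection. The difference of the diet response between genotypes passed the criteria for 58 genes (0.386%), 34 of them among the 619. With an adjusted p of at most 0.05, 1 gene was left. This difference contains the Lama4 AKO response that selected the 619, so the overlap follows in part from that selection. The Lama4 fl/fl libraries were spread on the same axis. Their mitochondrial rRNA share was 0.332% to 3.28% on HFD and 0.371% to 4.23% on chow, so that the diets overlapped there where they did not in Lama4 AKO mice. Among the genes named above, the difference was called for Plscr4 (0.63), Armcx2 (0.74), Tmem62 (0.85), Rgs7 (-2.05), Stoml2 (-1.19), Gda (-0.96) and Insig1 (-2.50). Each had an adjusted p of 0.199 to 0.220. They were named because they were called in Lama4 AKO mice, and that response is part of the difference. For Cck the response was -3.35 in Lama4 fl/fl mice and the difference 0.35 (adjusted p = 0.874).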

How the data were processed

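Epididymal fat RNA of 24 mice was sequenced with QuantSeq, which reads the 3′ end of polyadenylated transcripts. The authors deposited raw counts per gene (GRCm38, GENCODE M21 identifiers), and the counts were used as deposited. A deposited normalized table was not used. Groups came from the labels. The mice were littermates, and which of them shared a litter is not given in the sources used here.

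The filter on low counts asked for 1 CPM or more in 3 or more mice, which left 15020 of 16730 genes. Counts were scaled by TMM and fitted with edgeR 4.0.16 (quasi-likelihood, R 4.3.3), with 1 coefficient for each of the 4 groups. The contrast was HFD minus chow in Lama4 AKO mice. In place of the study's limma-voom, which was run as an alternative (limma 3.58.1), edgeR was the main test, with the study's criteria. DESeq2 1.42.0 was another alternative. Single values were compared by exact permutation of 6 against 6 mice, 924 splits. Floors cover counting error only. Total counts per Lama4 AKO library were 5579590 to 16457720.

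Named genes were the 10 called genes of lowest p in each direction, called members of the gene lists, and key genes of the tissue. Some genes that the rule names are not reported here. Members and lists were chosen with earlier results of these data known. On simulated data edgeR recovered 68 of 100 genes changed 2-fold and 96 of 100 changed 4-fold, with 8 false calls among 14813 genes. The simulation drew each gene independently, changed only genes above a set level, and gave libraries no shared difference other than their size. The real libraries differed along a common axis, so these figures do not measure the error of the calls reported here. Replicate numbers did not pair the mice. No 2 libraries within either Lama4 AKO group agreed within sampling noise.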

Additional observations from a re-analysis of the deposited data

Results flagged for a closer look

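In groups of 6 mice, 1 mouse lay far from the others for the following, in log2 CPM. HFD mouse 6 was apart for Mrgprb2 (1.31), Elovl6 (4.90), G3bp2 (6.73), Pck1 (7.44), Pcx (6.57), Caprin1 (6.46), Adgre1 (7.90) and Lama4 (6.53). Chow mouse 5 was apart for G3bp2 (6.87), Lama2 (5.53), Mmp11 (5.55), Pdia4 (4.33) and Caprin1 (6.62). Chow mouse 5 also had the fewest genes with a count, 16201, HFD mouse 5 had the lowest total of its group, 9156492, and HFD mouse 6 scored -2.26 on the first principal component. Chance flags about 1 in 20 groups when groups are independent. The gene flags here all fell on chow mouse 5 or HFD mouse 6, so they are not separate events and that rate does not describe them.

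The log2 diet response in Lama4 AKO mice minus that in Lama4 fl/fl mice was called for Plscr4 (0.63), Armcx2 (0.74), Tmem62 (0.85), Rgs7 (-2.05), Stoml2 (-1.19), Gda (-0.96) and Insig1 (-2.50). The interaction term of edgeR gave adjusted p-values from 0.199 to 0.220. These genes had been named for their call in Lama4 AKO mice, a response that is part of this difference.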

How the results depend on the processing

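For the diet response in Lama4 AKO mice, 619 genes were called. The count was 2422 (869 higher, 1553 lower) when the adjusted p (0.05) replaced the nominal one, 389 with a 2-fold minimum, 3594 with voom quality weights, 1315 (410 higher, 905 lower) with DESeq2, 1388 (359 higher, 1029 lower) when the 12 Lama4 AKO mice were fitted alone, and 42 with the mitochondrial rRNA share as a term, an alternative added after seeing the data. Limma-voom called 604, 307 higher and 297 lower where edgeR had 194 and 425, with 459 shared. Leaving out 1 mouse gave 299 to 1169. With the replicate block the count was 457, and 844 among the 12 mice alone. Same-numbered mice had correlations of -0.31 to 0.18, so the numbers were not taken to pair them.

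For the difference of diet response between genotypes, 58 genes were called. The count was 1 with an adjusted p, 37 with a 2-fold minimum, 1358 with quality weights, 148 with DESeq2, 32 with the replicate block and 29 to 188 when 1 mouse was left out.

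Signs turned as follows. Cd36 had -0.0021 with quality weights and -0.080 to 0.10 without 1 mouse. Pck1 had 0.0425 with the replicate block and -0.62 to 0.15 without 1 mouse. Cd3e had 0.42 with voom, 0.72 with quality weights, 0.66 with the replicate block in the 12 mice, and -0.70 to 1.41 without 1 mouse. Lcn2 had 0.11, 0.23, 0.040 and -0.26 to 0.19. With the mitochondrial rRNA share as a term, the values were Lep 0.0090, G3bp2 0.048, Psmc1 0.045, Pdia4 0.062, Adipoq 0.23, Acaca 0.051, Fasn 0.10, Lipe 0.23, Pnpla2 0.39, Cd36 -0.076, Pck1 1.64, Adrb3 0.93, Pparg 1.31, Bckdha 0.013, Pcx 0.15, Caprin1 0.088, Adgre1 -0.56, Cd68 -0.031, Trem2 -0.20, Gpnmb -0.42, Itgax -0.011, Lyve1 0.0062, Cd79a -1.40, Tnf -0.91, Lama4 0.46, Mest 0.66 and Fos -0.16. The cause was not tested for any of these.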

Other observations

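With the mitochondrial rRNA share as a term, the genes of lowest p for diet in Lama4 AKO mice were Gbp2b (log2 -7.32, adjusted p = 0.0414), an interferon-inducible GTPase, and Acod1 (-6.41, adjusted p = 0.0425), the itaconate-forming enzyme of activated macrophages. Without the term they had -3.83 and -2.35 and were not called. They were picked after their values were seen. The share did not overlap between the diets in Lama4 AKO mice, and this fit was not repeated with single mice left out. Chow mouse 6 had the highest sum of the type I interferon list among chow-fed Lama4 AKO mice, 629.7 CPM against a median of 247.4. Whether single mice carry the values of Gbp2b and Acod1 was not tested.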
